A study of Mus musculus with 18 samples.

Results

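The genes described here encode 10 secreted signals that skeletal muscle cells are known to release: the cytokines Il6, Lif and Il15, the macrophage growth factor Csf1, and the chemokines Ccl2, Ccl7, Cxcl1, Cxcl5, Cxcl12 and Cx3cl1. They were chosen by symbol, by a rule that uses no measured value but was set with earlier results of these data known. They make up 10 of the 55450 gene IDs in the count table, and all 10 passed the filter on low counts, which left 17912 genes to test. RNA came from C2C12, an established mouse myoblast line whose cells fuse into multinucleated myotubes when serum is lowered. Every line had been transfected with a Cas9 vector that also carries EGFP. The control was a sorted EGFP-positive population that had received the pX458 vector with no guide. Each edited line was 1 clone grown from a single cell transfected with paired guide RNAs that target the Meg3 promoter, Meg3 being a maternally expressed long noncoding RNA of the imprinted Dlk1-Dio3 cluster. The labels call the clone 2-4 an overexpressor of the cluster and the clone 2-7 its knockout. Because each edit is represented by 1 clone, the edit and the clone cannot be told apart. Myoblasts were kept in medium with 10% fetal bovine serum, and myotubes were collected on day 3 in 2% horse serum. Line and stage gave 6 groups with 3 replicates each, lettered A, B and C, or 18 libraries. The labels do not say that the replicates were separate cultures, so the p-values measure only the spread between these samples, which may be technical.

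IL-6 and LIF each bind a receptor chain of their own, encoded by Il6ra and Lifr, and then share the signalling chain gp130, encoded by Il6st, which activates JAK kinases and STAT3. Chemokines bind G protein-coupled receptors on moving cells: CCL2 and CCL7 attract monocytes, CXCL1 and CXCL5 attract neutrophils, and CXCL12 guides cells that carry CXCR4. In muscle, IL-6, LIF and IL-15 are known as myokines, signals released by contracting or regenerating fibres, and the chemokines are known for drawing leukocytes into injured tissue.

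The libraries held 41544358 to 79140702 counts, and 3 counts corresponded to 0.0375 to 0.0693 CPM, the count scaled to library size with TMM factors. Every overexpressor library held Meg3, at 5222 to 7763 counts, and every control and knockout library had 0. Rian, another noncoding RNA of the cluster, reached 8206 to 13241 counts in the overexpressor and 0 to 4 elsewhere. These genes therefore separated the overexpressor from the other lines, but not the knockout from the control, and every knockout direction below rests on its label. All 10 myoblast and myotube markers were detected, and their summed level rose from 1628 to 1879 CPM in control myoblasts to 16189 to 16733 CPM in control myotubes. The sum was 3151 to 4002 CPM in overexpressor and 12589 to 15556 CPM in knockout myoblasts, and 26383 to 29686 and 37302 to 45547 CPM in the corresponding myotubes. The sum therefore moved with line as well as stage. Not all markers moved with it. From control myoblasts to control myotubes, mean Myf5 went from 25.5 to 6.20 CPM and Myod1 from 208 to 216 CPM. Knockout myoblasts already had means of 3202 CPM of Myh3 and 1157 CPM of Myog. Control myoblasts had 47.2 and 105 CPM of these, and overexpressor myoblasts 42.5 and 297 CPM. The part of the 10 markers and their sum in the differences below was not tested. The 10 leukocyte markers summed to 3.13 to 13.9 CPM, mostly Cd14. Per library, Adgre1, Cd3e and Fcgr1 had 0 to 2 counts, Ptprc 0 to 11, Lyz2 0 to 28, Csf1r 2 to 46 and Cd68 32 to 99. Itgam had 0 or 1 count in control myoblasts and 31 to 43 counts in knockout myotubes. The part of leukocyte markers in the results was not tested.

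The set of RefSeq promoter sequences used here (GRCm38.p6) held windows for 6 of the 10 genes. The windows of Il6, Lif, Cxcl1 and Cxcl12 are shown because these genes gave the most contrasting patterns below. Each window holds the 250 bases before the RefSeq start site, 5′ to 3′, with matches to 3 motifs in capitals, searched on both strands: GGG and TTTCC with any 2 bases between them for NF-kB, TGANTCA for AP-1 and TTNNGNAA for C/EBP.
Il6 (chr5:30012864-30013113, plus strand): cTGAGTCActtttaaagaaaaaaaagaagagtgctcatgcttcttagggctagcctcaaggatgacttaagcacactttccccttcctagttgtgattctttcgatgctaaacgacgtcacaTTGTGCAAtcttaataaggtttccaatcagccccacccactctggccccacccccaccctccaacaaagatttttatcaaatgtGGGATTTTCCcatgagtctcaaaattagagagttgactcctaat
Lif (chr11:4257318-4257567, plus strand): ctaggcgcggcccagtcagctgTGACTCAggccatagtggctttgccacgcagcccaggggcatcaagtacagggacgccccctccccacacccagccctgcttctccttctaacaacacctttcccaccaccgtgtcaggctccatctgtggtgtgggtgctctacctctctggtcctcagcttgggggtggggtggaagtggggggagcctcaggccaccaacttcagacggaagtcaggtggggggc
Cxcl1 (chr5:90890995-90891244, plus strand): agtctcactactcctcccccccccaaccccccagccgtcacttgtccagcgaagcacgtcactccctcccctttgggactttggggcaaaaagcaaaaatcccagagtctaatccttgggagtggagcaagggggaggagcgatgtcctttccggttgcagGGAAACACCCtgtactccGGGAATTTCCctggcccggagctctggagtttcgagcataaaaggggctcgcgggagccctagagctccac
Cxcl12 (chr6:117168285-117168534, plus strand): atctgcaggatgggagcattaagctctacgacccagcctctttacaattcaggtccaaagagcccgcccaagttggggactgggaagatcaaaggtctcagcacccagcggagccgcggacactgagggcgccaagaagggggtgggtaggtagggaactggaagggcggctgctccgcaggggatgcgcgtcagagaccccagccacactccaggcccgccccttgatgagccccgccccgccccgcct
The Il6 window held GGGATTTTCC starting 44 bases before the start site, TTGTGCAA at 128 and TGAGTCA at 249. The Lif window held TGACTCA at 228, and the Cxcl1 window held GGAAACACCC at 89 and GGGAATTTCC at 71. The Cxcl12 window held none of these motifs, nor TTCNNNGAA (STAT) or CANNTG (E-box). The Csf1 window held 1 NF-kB match, GGAAAGTCCC at 154, and the Cx3cl1 window only an E-box, CAACTG at 116. E-boxes also lay in the windows of Il6 (CAAATG at 51) and Cxcl1 (CACTTG at 212). The Lif window held 3, the first at 234 and the last at 12. No window held the STAT motif. Among 32851 promoter windows of the same length, 1.41% held the NF-kB motif, 6.75% the AP-1 motif, 36.8% the C/EBP motif, 7.02% the STAT motif and 66.2% an E-box. A match describes letters in the window and not a bound site.

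Levels spanned a wide range, as the plot of the ligands by library shows. Per kilobase of exon, Csf1 was the most abundant of the 10 in control myoblasts, at 98.6 ± 4.68 CPM per kb (SD, n = 3). Cxcl12 followed at 25.3 ± 0.702 CPM per kb. Ccl7, Cxcl5, Ccl2, Cx3cl1 and Cxcl1 lay between 14.9 and 10.1 CPM per kb, with standard deviations of up to 2.78. Neighbours from Ccl7 to Cx3cl1 were not apart by more than the larger of their standard deviations. Cx3cl1 and Cxcl1 were, at 11.5 ± 0.796 and 10.1 ± 1.16 CPM per kb. Lif stood at 1.25 ± 0.167, Il15 at 0.315 ± 0.0621 and Il6 at 0.178 ± 0.0213 CPM per kb. Across the 6 groups, the highest group mean was 56.8 times the lowest for Cxcl5, 43.6 times for Cxcl1, 27.1 times for Il15, 21.6 times for both Il6 and Ccl2, and 13.4 times for Cxcl12. The ratio was 5.11 for Lif, 4.29 for Cx3cl1, 4.09 for Ccl7 and 3.84 for Csf1.

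**Figure D1:**
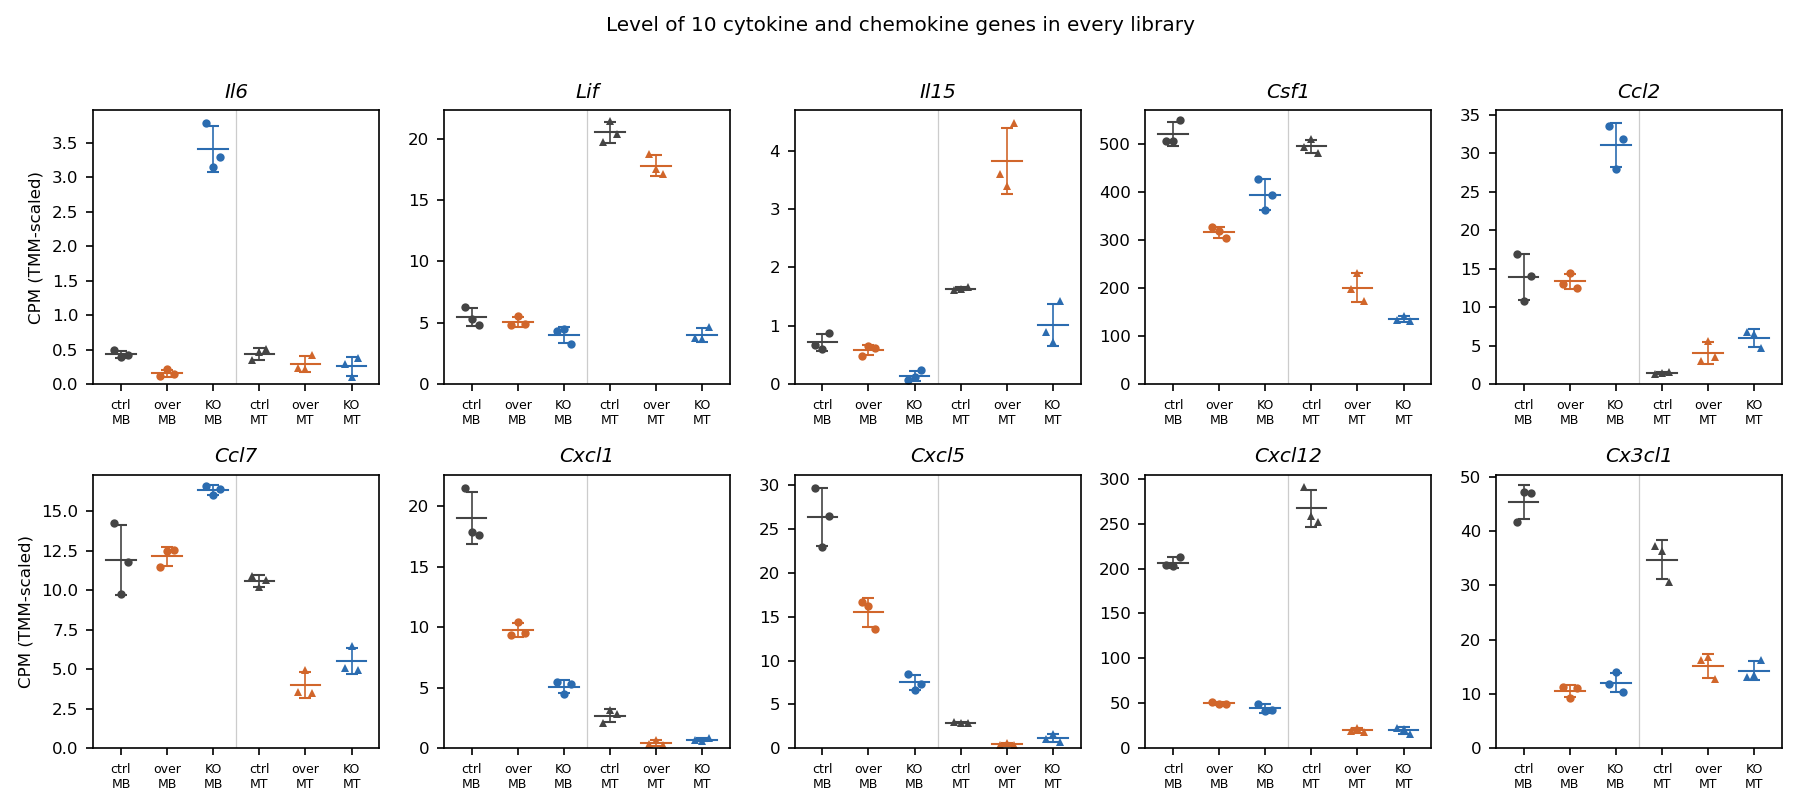
Level of each ligand in the 18 libraries, in TMM-scaled CPM on the vertical axes, for control (ctrl), overexpressor (over) and knockout (KO) myoblasts (MB) and myotubes (MT); points are libraries, horizontal lines are means and bars are SD (n = 3). Il6 peaks in knockout myoblasts at 3.41 CPM, Lif has means of 20.5 and 17.8 CPM in control and overexpressor myotubes against 4.02 CPM in knockout myotubes, and Cxcl12 has means of 207 and 267 CPM in the control line against 50.1 CPM or less in the edited lines.

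Each edited line was compared with the control at each stage with edgeR's quasi-likelihood test over all 17912 genes, with Benjamini-Hochberg adjustment and a threshold of 0.05. In overexpressor myoblasts 6 of the 10 ligands were lower than in the control and 0 were higher, where 40.4% of all genes passed, 20.7% higher and 19.7% lower. Their median log2 fold change was -0.74, against 0.02 over all genes. In knockout myoblasts 7 were lower and 3 higher (53.0% of all genes passed, 26.4% higher and 26.6% lower), with a median of -1.13 against 0.02. In overexpressor myotubes 6 were lower and 2 higher (57.1% passed, 26.2% higher and 30.9% lower), with a median of -1.25 against -0.04. In knockout myotubes 8 were lower and 1 higher (68.0% passed, 31.0% higher and 37.0% lower), with a median of -1.31 against -0.07. Both edited lines were compared with the same control libraries, so these counts are not independent of each other. The intervals are drawn in the plot of changes against the control.

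**Figure D2:**
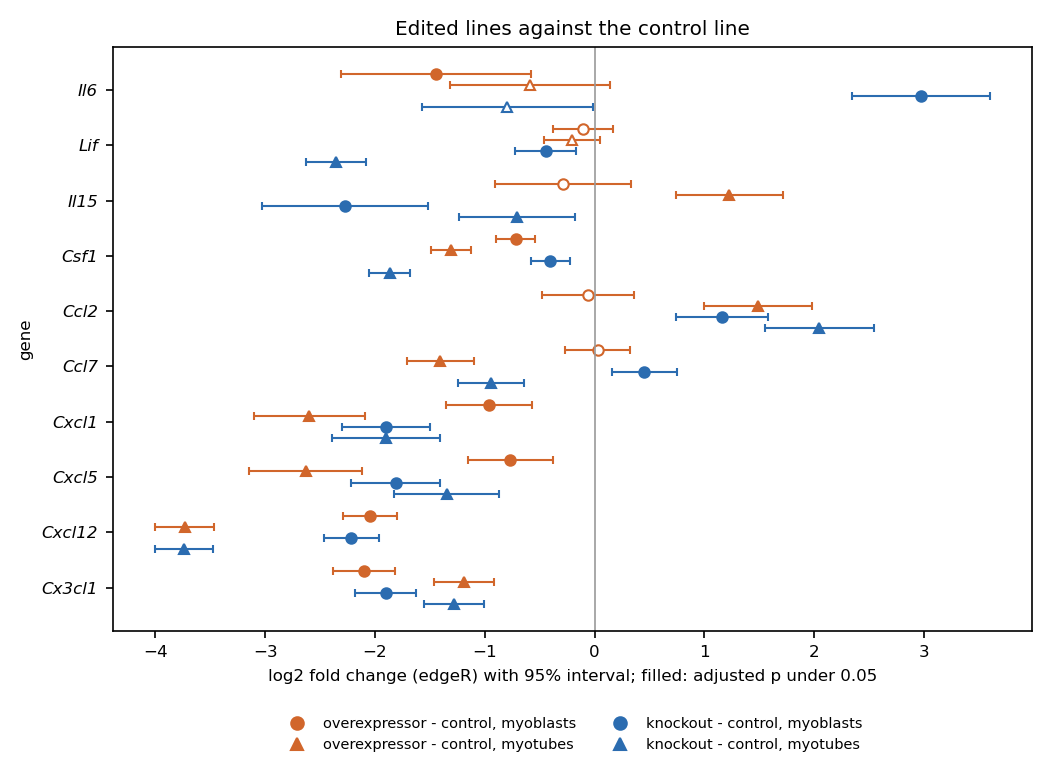
Log2 fold change of each ligand against the control line (horizontal axis) with its 95% interval, for both edited lines at both stages; filled points had an adjusted p under 0.05. Cxcl12 lies furthest to the left in myotubes of both lines, at -3.73 and -3.74, and Il6 furthest to the right in knockout myoblasts, at 2.97.

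Cxcl12 (chr6:117168535-117181367, plus strand, GRCm38) encodes the chemokine that retains CXCR4-bearing progenitors and guides muscle precursors. In replicates A, B and C, control myoblasts had 203, 203 and 213 CPM, overexpressor myoblasts 51.9, 49.5 and 49.0 CPM, and knockout myoblasts 49.8, 41.3 and 42.3 CPM. Control myotubes had 291, 259 and 251 CPM, overexpressor myotubes 19.5, 23.0 and 17.7 CPM, and knockout myotubes 22.4, 21.8 and 15.7 CPM. The control libraries were above the edited libraries throughout, with no overlap. In myoblasts the log2 fold change was -2.04 in the overexpressor (SE 0.12, adjusted p = 1.29e-10) and -2.22 in the knockout (SE 0.12, adjusted p = 3.23e-11). Myotubes gave -3.73 (SE 0.13, adjusted p = 5.31e-14) and -3.74 (SE 0.13, adjusted p = 5.14e-14), or 13.3-fold and 13.4-fold lower. In bulk samples, fewer cells that express a gene and less RNA per cell cannot be told apart. A difference in Cxcl12 between the clones was not detected, at 0.17 in myoblasts (95% interval -0.067 to 0.42) and 0.0061 in myotubes (-0.24 to 0.25). The myotube value changed sign under other size factors.

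The summed level of markers of fibro-adipogenic cells, stromal cells of muscle that also make CXCL12, moved with some of these results. All 5 listed markers (Pdgfra, Ly6a, Dpt, Pi16 and Cd34) were detected in every group. Their summed level was 350 to 371 CPM in control myoblasts, 463 to 589 CPM in overexpressor myoblasts and 52.8 to 56.6 CPM in knockout myoblasts. In myotubes it was 410 to 434 CPM in the control, 43.9 to 48.6 CPM in the overexpressor and 24.5 to 26.8 CPM in the knockout. The sum was thus higher than the control in overexpressor myoblasts, where Cxcl12 was lower, and lower than the control in the other edited groups. Ly6a made up most of the sum in overexpressor myoblasts, at a mean of 502 CPM against 166 CPM in control myoblasts. It was the only listed marker above the control there. The other means were lower, Cd34 at 22.8 CPM against 164 CPM and Pdgfra at 21.0 CPM against 30.0 CPM. Pi16 was at 0.796 CPM against 3.23 CPM and Dpt at 0.0934 CPM against 0.374 CPM. Knockout myoblasts had Ly6a, Cd34 and Pi16 below the control, at means of 8.98, 5.71 and 2.74 CPM. Their Pdgfra and Dpt means were above it, at 36.9 and 0.573 CPM against 30.0 and 0.374 CPM. The 5 markers thus did not move together. Knockout myotubes had 18.8 CPM of Pdgfra against 22.9 CPM in the control, a smaller fall than that of the sum. The sums are levels of these genes in C2C12 cultures and not counts of stromal cells. The part of these markers in the results was not tested.

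Cx3cl1 (chr8:94772009-94782427, plus strand) encodes fractalkine, which is made as a membrane-bound adhesion molecule and shed as a soluble chemokine. Control myoblasts had 41.7, 47.2 and 47.1 CPM, against 11.3, 9.30 and 11.2 CPM in overexpressor and 11.9, 14.0 and 10.4 CPM in knockout myoblasts. Control myotubes had 37.3, 36.4 and 30.6 CPM, against 16.2, 16.8 and 12.7 CPM in overexpressor and 13.1, 13.5 and 16.3 CPM in knockout myotubes. As with Cxcl12, the control libraries were above the edited ones at both stages. Cx3cl1 changed by -2.10 in overexpressor myoblasts (SE 0.13, adjusted p = 4.38e-10), and by -1.90 in knockout myoblasts (SE 0.13, adjusted p = 9.78e-10). In overexpressor and knockout myotubes it changed by -1.19 (SE 0.13, adjusted p = 2.73e-07) and -1.28 (SE 0.13, adjusted p = 9.43e-08). A difference in Cx3cl1 between the clones was not detected in myoblasts, at -0.20 (95% interval -0.47 to 0.081), nor in myotubes, at 0.092 (-0.18 to 0.36).

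The receptors of CXCL12 rose in the edited lines. Cxcr4, the signalling receptor of CXCL12, had a mean of 82.6 CPM in control, 109 CPM in overexpressor and 156 CPM in knockout myoblasts, and 20.1, 31.4 and 68.7 CPM in the corresponding myotubes. Its log2 fold changes against the control were 0.40 (adjusted p = 0.0059) and 0.92 (adjusted p = 1.1e-06) in myoblasts, and 0.64 (adjusted p = 7.82e-05) and 1.77 (adjusted p = 1.95e-10) in myotubes. Ackr3, the decoy receptor that removes CXCL12, had means of 23.8, 171 and 32.9 CPM in control, overexpressor and knockout myoblasts and 8.97, 21.3 and 30.4 CPM in myotubes. It rose in all 4 comparisons, by 2.85 (adjusted p = 1.52e-12) and 0.47 (adjusted p = 0.00195) in myoblasts and 1.25 (adjusted p = 4.83e-08) and 1.76 (adjusted p = 4.26e-10) in myotubes. Cx3cr1, the fractalkine receptor of monocytes and microglia, had 0 to 6 counts per library.

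Cxcl1 (chr5:90891241-90893115, plus strand) and Cxcl5 (chr5:90759360-90761624, plus strand) encode neutrophil chemokines that both act on CXCR2, and lie 129616 bases apart. Cxcl1 was at 21.5, 17.9 and 17.6 CPM in control myoblasts, 9.34, 10.4 and 9.54 CPM in overexpressor myoblasts, and 5.46, 4.48 and 5.34 CPM in knockout myoblasts. Its myotube levels were 2.12, 3.18 and 2.80 CPM in the control, 0.356, 0.688 and 0.264 CPM in the overexpressor, and 0.717, 0.619 and 0.836 CPM in the knockout. The myoblast groups formed 3 separate steps, while the myotube groups of the edited lines overlapped. Cxcl5 stepped in the same order in myoblasts, at 29.7, 23.0 and 26.5 CPM in the control, 16.7, 16.3 and 13.6 CPM in the overexpressor and 8.48, 6.70 and 7.39 CPM in the knockout. Its myotube values were 3.01, 2.91 and 2.87 CPM, then 0.342, 0.650 and 0.403 CPM, then 1.11, 1.61 and 0.690 CPM. The edited myotubes lay below the control without overlap, the overexpressor lowest.

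In myoblasts, Cxcl1 fell by 0.96 on the log2 scale in the overexpressor (SE 0.18, adjusted p = 0.000342) and by 1.90 in the knockout (SE 0.19, adjusted p = 1.29e-07). Cxcl5 fell by 0.77 (SE 0.18, adjusted p = 0.00262) and by 1.81 (SE 0.19, adjusted p = 2.76e-07). In myotubes the order of the clones turned, with Cxcl1 lower by -2.60 (adjusted p = 3.43e-08) in the overexpressor and -1.90 (adjusted p = 1.16e-06) in the knockout, and Cxcl5 by -2.63 (adjusted p = 4.46e-08) and -1.35 (adjusted p = 4.63e-05). The direct comparison of overexpressor with knockout was 0.94 (adjusted p = 0.000378) for Cxcl1 and 1.05 (adjusted p = 0.000137) for Cxcl5 in myoblasts. In myotubes it was -0.70 (adjusted p = 0.0347) for Cxcl1 and -1.29 (adjusted p = 0.000479) for Cxcl5. The myotube value of Cxcl1 was -1.21 without overexpressor replicate B and -0.41 without replicate C (adjusted p = 0.211), and its call was also lost without overexpressor replicate A (0.110) or knockout replicate A (0.0627) or C (0.116). The call was lost too with library totals (adjusted p = 0.0745) or with only the groups compared (0.147). Across the 18 libraries the log2 levels of Cxcl1 and Cxcl5 had r = 0.98, the highest of the 45 pairs of ligands, as a description of libraries that share groups. Their count ratio, Cxcl1 over Cxcl5, had group means between 0.634 and 0.925. Single libraries ran from 0.385 to 1.21 in knockout myotubes and from 0.655 to 1.06 in overexpressor myotubes. The receptor gene Cxcr2 had 0 or 1 count in each library.

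Ccl2 (chr11:82035571-82037453, plus strand) and Ccl7 (chr11:82045712-82047525, plus strand) encode monocyte chemokines for CCR2 and are neighbours, 8258 bases apart. Ccl2 overlaps Gm17268 on the opposite strand, which had 0 counts in all libraries. Ccl2 was at 16.9, 10.8 and 14.1 CPM in control myoblasts, 13.1, 14.5 and 12.5 CPM in overexpressor myoblasts, and 33.6, 28.0 and 31.9 CPM in knockout myoblasts. Myotubes held it at 1.33, 1.40 and 1.61 CPM in the control, 2.94, 5.63 and 3.56 CPM in the overexpressor, and 6.81, 6.46 and 4.62 CPM in the knockout. Knockout myoblasts and both edited myotube groups thus lay above their controls, and overexpressor myoblasts overlapped theirs.

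Ccl7 was at 14.2, 9.79 and 11.8 CPM in control myoblasts, 11.5, 12.5 and 12.5 CPM in overexpressor myoblasts, and 16.6, 16.0 and 16.4 CPM in knockout myoblasts. In myotubes it was at 10.9, 10.2 and 10.7 CPM in the control, 3.55, 4.94 and 3.49 CPM in the overexpressor, and 5.07, 6.46 and 4.98 CPM in the knockout. Unlike Ccl2, it was lower in the edited myotubes than in the control myotubes.

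In knockout myoblasts Ccl2 rose by 1.16 (SE 0.20, adjusted p = 9.92e-05) and Ccl7 by 0.45 (SE 0.14, adjusted p = 0.0108), a call that Ccl7 lost without control replicate B (adjusted p = 0.0745). In overexpressor myoblasts the changes were -0.059 for Ccl2 (95% interval -0.48 to 0.36) and 0.027 for Ccl7 (-0.27 to 0.32), and neither passed. In myotubes Ccl2 rose by 1.49 in the overexpressor (SE 0.23, adjusted p = 3.49e-05) and 2.05 in the knockout (SE 0.23, adjusted p = 7.5e-07). Ccl7 fell by 1.41 (SE 0.15, adjusted p = 1.58e-07) and by 0.94 (SE 0.14, adjusted p = 1.57e-05) in the same libraries. The count ratio of Ccl2 to Ccl7 was 1.16 ± 0.0506 (SD, n = 3) in control myoblasts and 0.136 ± 0.0144 in control myotubes. In overexpressor myotubes it was 0.996 ± 0.157 and in knockout myotubes 1.09 ± 0.222, and it was highest in knockout myoblasts at 1.90 ± 0.140. The receptor gene Ccr2 had 0 or 1 count in each library.

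Csf1 (chr3:107741048-107760469, minus strand) encodes the growth factor that keeps macrophages alive through CSF1R. It was at 507, 506 and 549 CPM in control, 327, 319 and 304 CPM in overexpressor, and 427, 363 and 393 CPM in knockout myoblasts. The myotubes had it at 494, 510 and 481 CPM in the control, 198, 231 and 172 CPM in the overexpressor, and 134, 142 and 131 CPM in the knockout. No group of edited cells overlapped its control, and the order of the clones differed between the stages. Csf1 changed by -0.72 in overexpressor myoblasts (SE 0.09, adjusted p = 1.71e-06), and by -0.40 in knockout myoblasts (SE 0.08, adjusted p = 0.000601). In overexpressor and knockout myotubes it changed by -1.30 (SE 0.09, adjusted p = 3.52e-10) and -1.87 (SE 0.09, adjusted p = 2.76e-12). Overexpressor against knockout was -0.32 in myoblasts (adjusted p = 0.00407) and 0.56 in myotubes (adjusted p = 2.38e-05). Csf1r itself had means of 0.137 to 0.753 CPM.

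Il6 (chr5:30013114-30019981, plus strand) encodes the cytokine that fibres release on contraction and that satellite cells use during regeneration. Knockout myoblasts had 3.79, 3.15 and 3.29 CPM, from 176, 173 and 185 counts. Control myoblasts had 0.487, 0.385 and 0.423 CPM and overexpressor myoblasts 0.120, 0.216 and 0.139 CPM. Control myotubes had 0.341, 0.458 and 0.505 CPM, overexpressor myotubes 0.238, 0.213 and 0.417 CPM, and knockout myotubes 0.290, 0.100 and 0.376 CPM. Outside knockout myoblasts each library had 6 to 30 Il6 counts, so low values carry large counting error. Il6 was 7.85-fold higher in knockout than in control myoblasts (log2 2.97, SE 0.30, adjusted p = 1.37e-07). It was 2.72-fold lower in overexpressor myoblasts (log2 -1.44, SE 0.41, adjusted p = 0.00882). In myotubes the differences from the control were -0.59 in the overexpressor (95% interval -1.32 to 0.14, adjusted p = 0.158) and -0.79 in the knockout (-1.57 to -0.017, adjusted p = 0.0652). The second of these passed without control replicate A (adjusted p = 0.0494) or knockout replicate C (adjusted p = 0.0209).

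Lif (chr11:4257557-4272514, plus strand) encodes the IL-6 family cytokine that supports myoblast proliferation. Control myoblasts had 6.25, 5.27 and 4.83 CPM, overexpressor myoblasts 4.81, 5.54 and 4.88 CPM, and knockout myoblasts 4.30, 4.46 and 3.27 CPM. Control myotubes had 19.8, 21.4 and 20.4 CPM, overexpressor myotubes 18.8, 17.5 and 17.1 CPM, and knockout myotubes 3.74, 3.63 and 4.68 CPM. The mean of the knockout myotubes, 4.02 CPM, was that of the myoblasts of the same clone, 4.01 CPM, while the means of the control and overexpressor myotubes were 20.5 and 17.8 CPM. Lif was 5.12-fold lower in knockout than in control myotubes (log2 -2.36, SE 0.13, adjusted p = 2.74e-11). In overexpressor myotubes the libraries lay below the control ones without overlap, but the change of -0.20 (95% interval -0.46 to 0.049) did not pass (adjusted p = 0.158). In myoblasts Lif fell by 0.45 in the knockout (SE 0.13, adjusted p = 0.00806), a call lost without control replicate A (adjusted p = 0.0576) or knockout replicate C (adjusted p = 0.0602).

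The receptor chains for IL-6 and LIF were lower in the myotubes of both clones than in control myotubes, as drawn in the plot of receptors by library. Il6ra had a mean of 25.5 CPM in control myotubes, 3.01 CPM in overexpressor myotubes and 2.22 CPM in knockout myotubes, changes of -3.08 (SE 0.15, adjusted p = 4.24e-12) and -3.51 (SE 0.15, adjusted p = 1.04e-12). Myoblasts had 14.4, 10.6 and 4.30 CPM of Il6ra in control, overexpressor and knockout, changes of -0.44 (adjusted p = 0.0145) and -1.74 (adjusted p = 9.52e-09). The first of these calls was lost without overexpressor replicate C (adjusted p = 0.0727). Lifr had means of 221, 56.2 and 66.9 CPM in control, overexpressor and knockout myotubes, changes of -1.98 (SE 0.15, adjusted p = 1.32e-08) and -1.73 (SE 0.15, adjusted p = 5.21e-08). Il6st, the shared gp130 chain, had means of 418, 182 and 186 CPM in the same myotubes, changes of -1.20 (adjusted p = 1.57e-11) and -1.17 (adjusted p = 1.9e-11). All 3 receptor chains were thus lower in edited myotubes, including the overexpressor, in which a change of Lif itself was not detected. Lifr was also lower in overexpressor than in control myoblasts, at -1.55 (SE 0.15, adjusted p = 4.64e-07). Leaving out single libraries gave Lifr changes of -0.51 to -0.41 in knockout myoblasts, with adjusted p between 0.0203 and 0.0613. Of the 10 tested genes in the list of 19 receptors, 4 were higher and 5 lower in overexpressor myotubes, and 4 higher and 4 lower in knockout myotubes, where 57.1% and 68.0% of all genes passed.

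**Figure D3:**
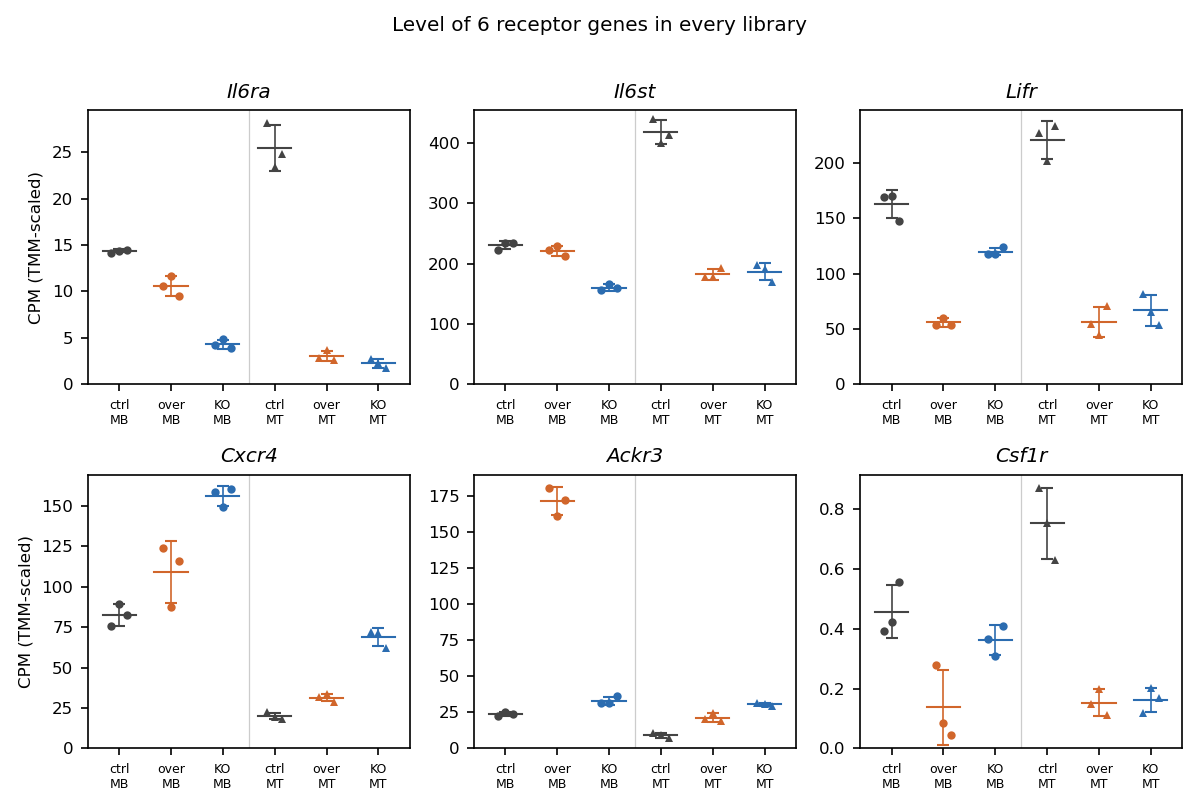
Level of receptor genes in the 18 libraries, in TMM-scaled CPM on the vertical axes, for control (ctrl), overexpressor (over) and knockout (KO) myoblasts (MB) and myotubes (MT); points are libraries, horizontal lines are means and bars are SD (n = 3). Il6ra, Il6st and Lifr are highest in control myotubes, at 25.5, 418 and 221 CPM, while Cxcr4 is highest in knockout myoblasts at 156 CPM and Ackr3 in overexpressor myoblasts at 171 CPM.

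Il15 (chr8:82331632-82403222, minus strand) encodes a myokine that sustains natural killer and memory T cells. Control myoblasts had 0.674, 0.596 and 0.869 CPM, overexpressor myoblasts 0.479, 0.647 and 0.624 CPM, and knockout myoblasts 0.0645, 0.127 and 0.231 CPM, the last from only 3, 7 and 13 counts. Control myotubes had 1.61, 1.63 and 1.66 CPM, overexpressor myotubes 3.59, 3.40 and 4.47 CPM, and knockout myotubes 0.888, 0.720 and 1.42 CPM. At both stages the knockout was lowest, and in myotubes the overexpressor was highest. Il15 rose by 1.23 in overexpressor myotubes (SE 0.23, adjusted p = 0.00017). It fell by 2.27 in knockout myoblasts (SE 0.36, adjusted p = 3.24e-05) and by 0.71 in knockout myotubes (SE 0.25, adjusted p = 0.0187). The last call was lost without knockout replicate A (adjusted p = 0.0632) or B (adjusted p = 0.106). Overexpressor myoblasts differed from the control by -0.29 (95% interval -0.90 to 0.33), which did not pass. Il2rb, the signalling chain for IL-15, had means of 1.53, 13.6 and 2.33 CPM in control, overexpressor and knockout myotubes, and rose by 3.15 in the overexpressor (SE 0.28, adjusted p = 2.2e-08). Il15ra, which presents IL-15 to neighbouring cells, had means of 0.187 to 0.689 CPM.

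The clones were also compared with each other. In myoblasts 8 of the 10 ligands passed, 4 higher and 4 lower in the overexpressor than in the knockout, where 52.6% of all genes passed, 25.7% higher and 26.9% lower. The difference was largest for Il6, at -4.41 (SE 0.35, adjusted p = 5.04e-09). It was 1.99 for Il15 (adjusted p = 0.000183), -1.22 for Ccl2 (adjusted p = 6.01e-05), -0.43 for Ccl7 (adjusted p = 0.0157) and 0.34 for Lif (adjusted p = 0.0378). The call for Ccl7 was lost without overexpressor replicate A (adjusted p = 0.059), and that for Lif with no filter on low counts (adjusted p = 0.0735), with only the groups compared (0.0543) or without overexpressor replicate B (0.134) or C (0.0513) or knockout replicate C (0.214). In myotubes 7 passed, 3 higher and 4 lower, where 59.7% of all genes passed, 30.6% higher and 29.1% lower, and 4 passed without overexpressor replicate A or C. The largest were Lif, at 2.15 (SE 0.13, adjusted p = 3.09e-10), and Il15, at 1.93 (SE 0.24, adjusted p = 2.66e-06). Ccl2 differed by -0.56 (adjusted p = 0.0292) and Ccl7 by -0.46 (adjusted p = 0.0119). Both calls were lost without overexpressor replicate A (adjusted p = 0.129 and 0.0518), C (0.116 and 0.0713) or knockout replicate B (0.0912 and 0.0868), and that of Ccl2 also without knockout replicate A (0.108). Fitting only the groups compared also ended both calls (0.115 and 0.0772), and for Ccl2 so did library totals (0.0813) and no filter (0.0964). The value of Ccl2 was -0.88 without overexpressor replicate B.

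Most of the ligands differed between myoblasts and myotubes in each line. Serum changed together with stage, so its effect cannot be told apart from differentiation, here and in the comparisons of differentiation below. In the control line 3 were higher in myotubes and 4 lower, where 62.8% of all genes passed, 33.9% higher and 28.8% lower, close to the share of the ligands. In the overexpressor 3 were higher and 6 lower, where 62.8% of all genes passed, 29.8% higher and 33.0% lower. In the knockout 1 was higher and 7 were lower, where 65.4% of all genes passed, 29.8% higher and 35.6% lower. The median log2 change of the ligands was -0.12, -0.99 and -1.55, against 0.07, -0.02 and -0.08 over all genes. In the control line Lif rose by 1.91 (SE 0.13, adjusted p = 2.91e-10) and Il15 by 1.20 (adjusted p = 0.000624), while Ccl2, Cxcl5 and Cxcl1 dropped 9.62-fold, 9.01-fold and 7.06-fold (adjusted p = 1.89e-09, 2.32e-10 and 6.92e-10). Cxcl12 rose by 0.37 (adjusted p = 0.00826), which became 0.13 (adjusted p = 0.385) when scaled by library totals. Cx3cl1 fell by 0.38 (adjusted p = 0.0136), a call lost without control myotube replicate C (adjusted p = 0.0759), and its value was -0.63 with library totals. Il6, Csf1 and Ccl7 changed by 0.0080, -0.073 and -0.17 and did not pass. With library totals as scale, Csf1 and Ccl7 did pass (adjusted p = 0.00492 and 0.0201), and the Il6 value turned to -0.23. Csf1 also passed with only the groups compared (adjusted p = 0.0359).

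**Figure D4:**
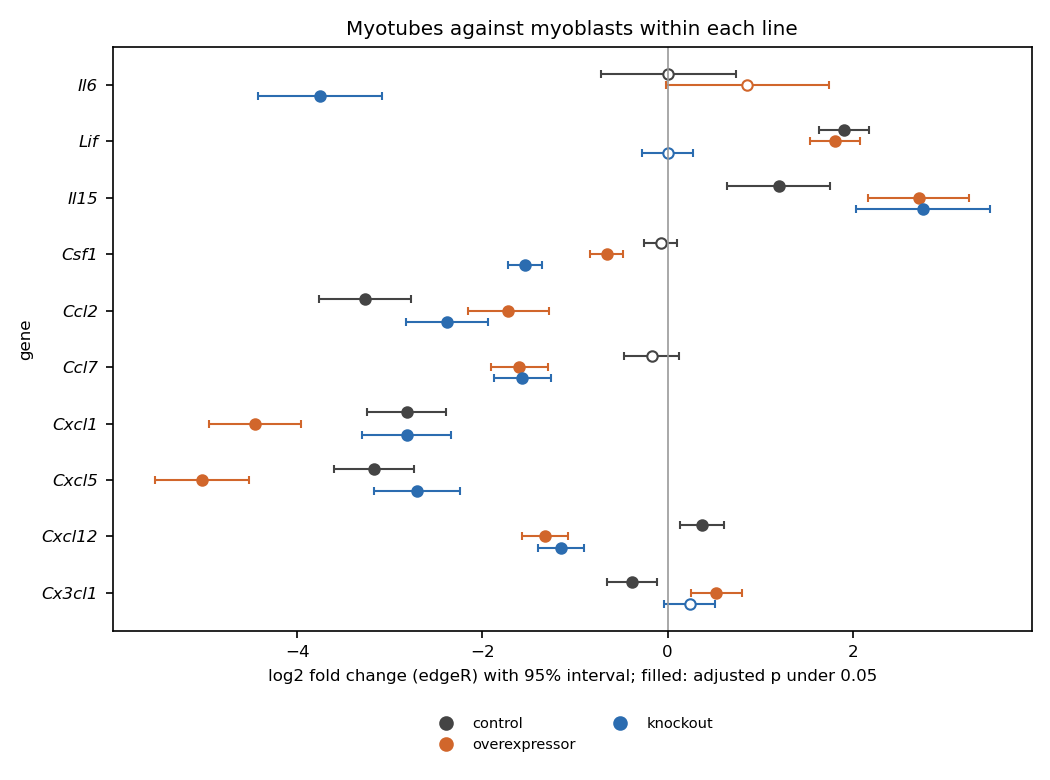
Log2 fold change of each ligand from myoblasts to myotubes (horizontal axis) with its 95% interval, in the control, overexpressor and knockout lines; filled points had an adjusted p under 0.05. Cxcl5 and Cxcl1 are far to the left in each line, Lif lies near 0 in the knockout and at 1.91 and 1.81 in the other lines, and Il6 is at -3.76 in the knockout.

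Differentiation differed between the lines for most ligands, tested as the interaction of line and stage. Against the control line, 3 ligands had a higher and 5 a lower change in the overexpressor, where 39.0% of all genes passed, 16.6% higher and 22.3% lower. The counts in the knockout were also 3 and 5, where 50.1% of all genes passed, 20.2% higher and 29.9% lower. Between the clones 3 were higher and 2 lower, near the 46.7% of all genes that passed, 24.3% higher and 22.4% lower. Lif rose by 1.81 in the overexpressor (adjusted p = 6.02e-10) but changed by 0.00020 in the knockout (95% interval -0.28 to 0.28). The difference of the knockout from the control line was -1.91 (SE 0.18, adjusted p = 1.3e-07). Il6 dropped 13.5-fold in the knockout (adjusted p = 1.28e-08), a difference of -3.77 (adjusted p = 3.7e-06) from the control line. Its change in the overexpressor, 0.86, did not pass (adjusted p = 0.0817), though it did with DESeq2 (adjusted p = 0.045) or without overexpressor myotube replicate B (adjusted p = 0.0483).

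Cxcl12 rose with differentiation in the control line but fell by 1.32 in the overexpressor (adjusted p = 1.49e-08) and by 1.15 in the knockout (adjusted p = 1.47e-07). The differences from the control line were -1.69 (adjusted p = 1.7e-07) and -1.52 (adjusted p = 5.37e-07). Ccl7 fell by 1.60 (adjusted p = 1.98e-08) and 1.57 (adjusted p = 3.81e-08) in these lines, differences of -1.43 (adjusted p = 1.58e-05) and -1.40 (adjusted p = 1.74e-05). Csf1 fell by 0.66 (adjusted p = 2.07e-06) and 1.54 (adjusted p = 7.28e-11), differences of -0.58 (adjusted p = 0.000713) and -1.47 (adjusted p = 1.84e-08). The first of these was -0.37 without overexpressor myotube replicate C. The neutrophil chemokines fell furthest in the overexpressor, Cxcl5 32.8-fold (adjusted p = 3.26e-12) and Cxcl1 22.0-fold (adjusted p = 9.41e-12), against 2.70 and 2.82 on the log2 scale in the knockout. The fall in the overexpressor exceeded that in the control line by -1.87 for Cxcl5 (adjusted p = 9.02e-05) and -1.64 for Cxcl1 (adjusted p = 0.000272). Overexpressor myotubes held only 23, 52 and 29 counts of Cxcl5 and 24, 55 and 19 counts of Cxcl1. The sizes of these falls therefore carry counting error.

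Ccl2 fell less in the overexpressor, by 1.72 (adjusted p = 1.43e-06), than in the control line, a difference of 1.55 (adjusted p = 0.000643). In the knockout it fell by 2.38 (adjusted p = 3.96e-08), a difference of 0.89 (adjusted p = 0.0236). That call was lost with no filter on low counts (adjusted p = 0.0738) and without control myoblast replicate A (0.0627), knockout myoblast replicate B (0.053), control myotube replicate A (0.0596) or knockout myotube replicate A (0.0557) or B (0.0533). Il15 rose by 2.71 in the overexpressor (adjusted p = 4.08e-08) and 2.76 in the knockout (adjusted p = 1.61e-06), each more than in the control line, by 1.51 (adjusted p = 0.00326) and 1.56 (adjusted p = 0.00749). Cx3cl1 rose in the overexpressor by 0.53 (adjusted p = 0.00183), and its change of 0.24 in the knockout did not pass (adjusted p = 0.118) except with DESeq2 (0.0236), its size factors in edgeR (0.0273) or without knockout myoblast replicate B (0.0363). It differed from the control line by 0.91 (adjusted p = 0.000559) and 0.62 (adjusted p = 0.00892).

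The genes that act upstream and downstream of these ligands were read from lists grouped by function. Their counts are to be read against the 40.4% and 53.0% of all genes that passed in overexpressor and knockout myoblasts, and the 57.1% and 68.0% in the corresponding myotubes. Of 15 JAK-STAT genes, 5 were higher and 5 lower in overexpressor myoblasts, 3 and 8 in knockout myoblasts, 6 and 5 in overexpressor myotubes, and 7 and 5 in knockout myotubes. The medians were -0.0099, -0.31, -0.099 and 0.23, against 0.02, 0.02, -0.04 and -0.07 over all genes. Socs3, the feedback inhibitor of gp130 signalling, had means of 58.6, 18.3 and 23.3 CPM in control, overexpressor and knockout myotubes, falling by 1.68 (adjusted p = 1.6e-09) and 1.33 (adjusted p = 2.86e-08). In myoblasts Socs3 fell by 0.66 (adjusted p = 0.000224) and 0.84 (adjusted p = 1.2e-05). Socs2, an inhibitor of growth hormone signalling, rose in myoblasts, from 35.7 CPM in the control to 126 and 119 CPM in the overexpressor and knockout (adjusted p = 3.44e-11 and 4.49e-11). In myotubes its change was -0.12 in the overexpressor (adjusted p = 0.311), and it fell by 0.42 in the knockout (adjusted p = 0.000791).

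Of 20 NF-kB pathway genes, 5 were higher and 10 lower in overexpressor myoblasts, 3 and 11 in knockout myoblasts, 4 and 6 in overexpressor myotubes, and 7 and 10 in knockout myotubes. The share of all genes was 20.7% higher and 19.7% lower, 26.4% and 26.6%, 26.2% and 30.9%, and 31.0% and 37.0% in these comparisons. Bcl3, a nuclear co-factor of NF-kB, had 316 to 519 counts in each control library and 2 to 27 in each edited library. Its log2 fold changes ran from -4.75 (SE 0.26) in knockout myotubes to -7.07 (SE 0.33) in knockout myoblasts. Tnfaip3, which switches NF-kB signalling off, rose from 9.92 CPM in control myoblasts to 25.4 and 24.7 CPM in the overexpressor and knockout (adjusted p = 1.26e-09 and 1.3e-09).

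Of 10 AP-1 and C/EBP factors, 7 were lower in overexpressor myotubes and 0 higher, and 7 were lower in knockout myotubes and 1 higher, with medians of -0.60 and -1.04 against -0.04 and -0.07 over all genes. Among all genes 30.9% and 37.0% were lower there. In myoblasts the counts were 4 higher and 3 lower in the overexpressor, and 2 higher and 4 lower in the knockout. Cebpb, a regulator of Il6 and of myeloid genes, fell from a mean of 159 CPM in control myotubes to 36.1 and 36.8 CPM (adjusted p = 1.68e-12 and 1.57e-12). Junb fell in both stages, from 280 CPM in control myoblasts to 109 and 113 CPM (adjusted p = 8.8e-10 and 9.78e-10). Atf3, a stress-induced repressor, rose in edited myoblasts, from 0.466 to 4.94 and 7.63 CPM, and fell in edited myotubes, from 22.8 to 6.79 and 10.1 CPM (adjusted p up to 6.91e-06).

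Of 9 genes that control the decay of cytokine mRNA, 4 were lower in overexpressor myoblasts and 0 higher, 3 were lower in knockout myoblasts and 1 higher, 4 were lower in overexpressor myotubes and 2 higher, and 6 were lower in knockout myotubes and 0 higher. The share that passed in either direction was close to that of all genes in overexpressor myoblasts (40.4%) and knockout myotubes (68.0%). Among all genes 20.7% were higher and 19.7% lower in the first, and 31.0% and 37.0% in the second. The medians of the list there were -0.21 and -0.42, against 0.02 and -0.07 over all genes. Zfp36l2, which binds AU-rich elements, fell from 217 CPM in control myotubes to 84.8 and 76.1 CPM (adjusted p = 3.82e-07 and 9.14e-08). Of 6 tested genes that shed or trim these ligands, 3 and 4 were lower in overexpressor and knockout myoblasts with 0 higher. In myotubes 4 and 5 were lower and 1 higher in each line. Among all genes 19.7% and 26.6% were lower in these myoblasts, and 30.9% and 37.0% in these myotubes. Mmp2, a gelatinase that cleaves CXCL12 and CCL7, had means of 1701, 84.8 and 63.4 CPM in control, overexpressor and knockout myotubes, changes of -4.33 (SE 0.10, adjusted p = 3.22e-16) and -4.75 (SE 0.10, adjusted p = 8.87e-17). The fibro-adipogenic marker sums given above moved in the same direction in myotubes, and their part in this was not tested.

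Of 45 other cytokine and chemokine genes, 26 were tested. In overexpressor myoblasts 4 of these were higher and 8 lower, in knockout myoblasts 9 and 9, in overexpressor myotubes 9 and 12, and in knockout myotubes 9 and 8. The share that passed in either direction was near that of all genes in overexpressor myoblasts (40.4%) and knockout myotubes (68.0%). Ctf1, a gp130 ligand, was lower in edited myoblasts, at 3.83 and 3.92 CPM against 9.44 CPM, and higher in edited myotubes, at 12.6 and 7.23 CPM against 3.38 CPM (adjusted p up to 1.53e-06). Il33, a nuclear alarmin, did the reverse, from 3.28 to 18.9 and 9.94 CPM in myoblasts and from 15.0 to 5.15 and 2.93 CPM in myotubes (adjusted p up to 1.94e-06). Il1rn, the IL-1 receptor antagonist, rose in the knockout, from 4.84 to 16.6 CPM in myoblasts (adjusted p = 1.95e-07) and from 0.709 to 7.29 CPM in myotubes (adjusted p = 2.77e-10).

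The profiles of the ligands over the 18 libraries were compared by Pearson's r of log2 CPM, as a description with no test, since libraries share groups. Beside Cxcl1 and Cxcl5, the pairs with the highest values were Csf1 and Cxcl12 (r = 0.89), Ccl7 and Cxcl5 (0.86), Ccl7 and Cxcl1 (0.85), and Cxcl12 and Cx3cl1 (0.81). Lif and Ccl2 ran in opposite directions (r = -0.82), and the neighbours Ccl2 and Ccl7 had r = 0.54. Among 10975 other genes, the profile most like that of Il6 was that of Pcca (r = 0.92), and for Lif that of Adamts6 (0.95). For Csf1 it was Creb3l1 (0.99), for Cxcl12 Jade2 (0.99) and then Osmr (0.99), the receptor chain for oncostatin M, and for Cxcl1 Twist2 (0.99). For Cxcl5 it was Wdr48 (0.99), for Ccl2 Tmpo (0.98), for Ccl7 P4ha3 (0.96), for Cx3cl1 Aqp5 (0.97) and for Il15 Lmtk2 (0.95). Pearson's r does not compare the size of the changes. Group means of Pcca ran from 31.3 to 50.0 CPM, against 0.158 to 3.41 CPM for Il6. Creb3l1 and Csf1 were more alike in range, at 107 to 404 and 136 to 521 CPM.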

How the data were processed

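PolyA RNA from 18 libraries was sequenced. The authors deposited raw read counts per Ensembl gene ID, and their processing notes name mm10, STAR 2.7.9a, featureCounts, Subread 2.0.3, FastQC 0.11.7 and DESeq2 1.32.0 without giving their roles. Their variance-stabilised values were not used. The annotation release, strand setting and filters are not given in the sources used here. Symbols, exon lengths and positions came from GENCODE M21 (GRCm38), which matched 55104 of 55450 IDs.

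Counts were tested in R 4.3.3 with edgeR 4.0.16 (TMM, filterByExpr, robust quasi-likelihood fit), with 6 groups, 12 contrasts, 12 residual degrees of freedom and Benjamini-Hochberg adjustment over 17912 genes at 0.05. The script was tested on simulated counts for overexpressor minus control in myoblasts. It recovered 67.9% of 112 genes changed by 1 on the log2 scale and 89.8% of 88 changed by 2. Among 17599 genes tested there, 11 unchanged ones were called. A difference that did not pass may therefore have been missed. An SE is the size of the log2 fold change over the root of the F statistic. Depth of 41544358 to 79140702 counts limits the precision of Il6 and Il15 most.

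The 10 ligands were named throughout, with chosen receptors and, per pathway list and contrast, genes past the threshold with the highest and lowest change among those with a mean of at least 5 CPM in a group. Like genes were the 2 with the highest r per ligand. Members and lists were chosen with earlier results of these data known. The alternatives were DESeq2 1.42.0, its size factors in edgeR, library totals, no filter, a replicate block, only the groups compared, and leaving out each library.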

Additional observations from a re-analysis of the deposited data

Results flagged for a closer look

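The change from myoblasts to myotubes differed between lines for 21 pairs of a ligand and 2 lines, by the interaction term of edgeR's quasi-likelihood test with Benjamini-Hochberg adjustment over all genes. Each value is the difference in log2 fold change on differentiation. Among all genes, 39.0% passed for overexpressor minus control, 50.1% for knockout minus control and 46.7% for overexpressor minus knockout. For overexpressor minus knockout, 3 ligands higher and 2 lower of 10 were near that share.

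Overexpressor minus control was -1.87 for Cxcl5 (adjusted p = 9.02e-05), -1.69 for Cxcl12 (1.7e-07), -1.64 for Cxcl1 (0.000272), -1.43 for Ccl7 (1.58e-05) and -0.58 for Csf1 (0.000713). It was 1.55 for Ccl2 (adjusted p = 0.000643), 1.51 for Il15 (0.00326) and 0.91 for Cx3cl1 (0.000559).

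Knockout minus control was -3.77 for Il6 (adjusted p = 3.7e-06), -1.91 for Lif (1.3e-07), -1.52 for Cxcl12 (5.37e-07), -1.47 for Csf1 (1.84e-08) and -1.40 for Ccl7 (1.74e-05). It was 1.56 for Il15 (adjusted p = 0.00749), 0.89 for Ccl2 (0.0236) and 0.62 for Cx3cl1 (0.00892).

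Overexpressor minus knockout was 4.62 for Il6 (adjusted p = 1.4e-06), 1.81 for Lif (4.22e-07) and 0.88 for Csf1 (1.36e-05). It was -2.33 for Cxcl5 (adjusted p = 1.76e-05) and -1.64 for Cxcl1 (0.000647). Each line had 3 libraries per stage, and the contrasts share libraries.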

How the results depend on the processing

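Of 1620 log2 fold changes of the 10 ligands under the alternatives, 1524 kept both direction and side of the threshold. The number of ligands past the threshold stayed within 1.5 times the reported one in 159 of 162 cases, the exceptions being myotubes of overexpressor against knockout. There it went from 7 to 4 with only the groups compared, and ranged from 4 to 7 when single libraries were left out. Library totals moved the median of all genes by -0.24 to 0.19, and the share of higher calls by -16.1 to 18.3 percentage points.

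The directions that turned belonged to differences that had not passed. With DESeq2, Cxcl12 between the myotubes of the clones was -0.0092, Il6 in control differentiation -0.020 and the Lif interaction of overexpressor against control 0.013. With DESeq2's size factors in edgeR these were -0.0096, -0.020 and 0.013. With library totals, Ccl7 in overexpressor myoblasts was -0.014, Il6 in control differentiation -0.23, Lif in knockout differentiation -0.17, the Lif interaction 0.088, and the overexpressor against knockout interactions of Il15 and Ccl7 0.062 and 0.078. With no filter, Lif in knockout differentiation was -0.016, the Cxcl1 interaction of knockout against control -0.012, and those of Il15 and Ccl7 between the clones 0.0023 and 0.013. With only the groups compared, Ccl7 in overexpressor myoblasts was -0.0053 and Il6 in control differentiation -0.058. With the replicate block, Il6 in control differentiation was -0.0064. The replicate letters did not pair the libraries (0 of 15 group pairs had every same-letter correlation over 0.1, and 0 libraries correlated best with their own letter), and the block changed no call of a ligand.

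When single libraries were left out, these values ranged from -0.19 to 0.0039 for Lif, -0.21 to 0.10 for Ccl2 and -0.099 to 0.17 for Ccl7 in overexpressor myoblasts. They ranged from -0.12 to 0.16 for Il6 in control and from -0.13 to 0.085 for Lif in knockout differentiation. Between the myotubes of the clones they ranged from -0.20 to 0.56 for Il6 and -0.14 to 0.12 for Cxcl12. For the interactions they ranged from -0.21 to 0.042 for Lif (overexpressor against control), -0.15 to 0.13 for Cxcl1 (knockout against control), and -0.60 to 0.26 for Il15 and -0.22 to 0.10 for Ccl7 between the clones. The cause was not tested. Calls of ligands that were lost or gained are otherwise given beside the result. The Cxcl5 interaction of knockout against control, 0.47, was past the threshold with DESeq2 (adjusted p = 0.04997) or without knockout myotube replicate C (0.0346), and that of Ccl2 between the clones, 0.66, with library totals (0.0479) or without overexpressor myotube replicate A (0.0156) or C (0.0458).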
